A study of Mus musculus with 8 samples.

Results

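Klrb1b and its Clec2 ligand family are 9 genes of the mouse natural killer (NK) gene complex, 4 encoding Klrb1 (NKR-P1) receptors and 5 encoding Clec2 (Clr) proteins. They were taken by symbol from 19938 genes measured in liver tumors and the adjacent liver of the same mice. Each of the 9 had 1 probe, so the rule of keeping the brightest probe made no choice. Klrb1b was chosen by its tumor and adjacent values, whose large gap was known from earlier results of these data, and the other 8 genes were taken as its relatives or as members of the family that holds its ligand. The Klrb1b difference is therefore given as a description with no test.

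The samples came from 4 male C57BL/6J mice (M24, M48, M50 and M60), injected with an AAV vector (adeno-associated virus) when 2 to 3 months old and necropsied 18 months later. From each mouse a piece labelled hepatocellular carcinoma and a piece of adjacent normal liver were profiled on 1 microarray each, which gave 4 tumor and 4 adjacent samples. The vector's cargo is not given in the sources used here. The adjacent group is liver of the same injected, tumor-bearing mice, and it is the only comparison group. The pieces were bulk tissue, so more cells of a type and more RNA per cell cannot be told apart.

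Klrb1 receptors are C-type lectin-like proteins on the surface of NK cells and some other lymphocytes. Klrb1b is an inhibitory receptor that binds Clec2d (Clr-b), a protein carried by many healthy cells, and loss of Clec2d from a cell can expose it to NK cell attack. Receptor and ligand genes lie intermingled in the same chromosomal cluster, so they tend to be inherited together. Levels are the log2 values deposited by the authors, and each difference is the tumor level less the adjacent level on that scale. The words rose and fell are kept for genes that passed an adjusted p of 0.05 in limma, fitted over all tested genes with the mouse as a block.

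The receptor gene Klrb1b was high in every tumor and low in every adjacent sample. Its level in adjacent liver was 4.09, 4.52, 4.07 and 4.24 for M24, M48, M50 and M60. In the tumors, in the same order of mice, it was 9.58, 8.998, 10.68 and 10.94. The groups did not overlap, and the lowest tumor value lay far above the highest adjacent value. The differences were 5.49, 4.48, 6.61 and 6.69, with a mean of 5.82 (SE 0.36, n = 4 pairs), or 56.4-fold on the linear scale. Group means were 4.23 ± 0.20 (SD, n = 4) in adjacent liver and 10.05 ± 0.91 (SD, n = 4) in tumors.

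The adjacent level of Klrb1b was close to background. It lay below 4.597, the mean level under which genes were left out as low, and the gene passed that filter through its tumor values. As a gauge of background, the 1027 olfactory receptor genes on the array, which liver is not known to use, had a median of 2.95 in adjacent liver and a 95th percentile of 4.02, and the adjacent mean of Klrb1b was above 96.8% of them. A fold against so low a level is uncertain in size. The tumor mean stood 5.45 above the filter value itself. Tumors also varied more than adjacent samples, with a range of 1.94 against 0.44, and M48 had the highest adjacent level and the lowest tumor level.

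**Figure D1:**
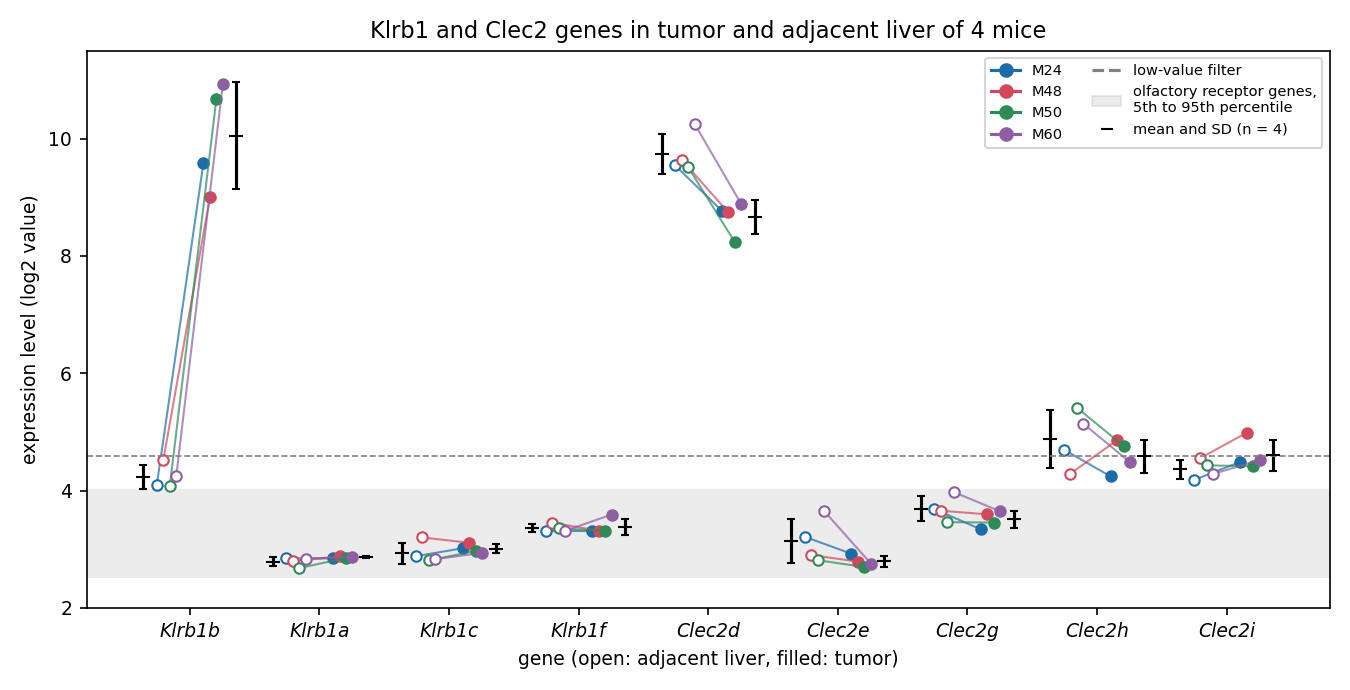
Expression level (log2 value, vertical axis) of the 9 genes in adjacent liver (open circles) and tumor (filled circles) of each mouse, joined by a line per mouse, with the mean and SD of 4 samples beside each group. Klrb1b goes from about the low-value filter (dashed line at 4.597) to between 8.998 and 10.94, Clec2d is lower in the tumor of every mouse, and Klrb1a, Klrb1c, Klrb1f, Clec2e and Clec2g have group means inside the band of the olfactory receptor genes.

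The other receptor genes stayed at background in both tissues. Klrb1a, whose product is a related receptor of the same subfamily, ranged from 2.68 to 2.85 in adjacent liver and from 2.84 to 2.88 in tumors. Klrb1c encodes the activating receptor known as NK1.1, the antigen by which NK cells of C57BL/6 mice are usually stained, and it ranged from 2.81 to 3.20 in adjacent liver and from 2.94 to 3.11 in tumors. Klrb1f, a receptor that binds other Clec2 proteins, ranged from 3.31 to 3.45 and from 3.31 to 3.59. In all 3 genes the groups overlapped, and the group means lay within the range of the olfactory receptor genes.

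Their differences were small beside that of Klrb1b. The mean difference was 0.07 for Klrb1a, 0.08 for Klrb1c and 0.02 for Klrb1f, and the highest in any mouse was 0.27, for Klrb1f in M60. All 3 were below the low-value filter and were not tested in the main fit. When all 19938 genes were fitted without the filter, limma gave adjusted p = 0.462 for Klrb1a, 0.489 for Klrb1c and 0.888 for Klrb1f, where 18.7% of all genes passed. Klrb1 (NKR-P1G), a further receptor gene of the cluster outside the 9, went from a mean of 3.16 to 3.24, with a difference of 0.07. Receptor genes of this family are related in sequence and can share probe signal, which was not tested.

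The start regions of these receptor genes are shown because the 4 related genes differed so widely in their tumor and adjacent differences. Sequences are from RefSeq's GRCm38.p6 promoter table, matched by symbol. Klrb1b and Clec2i had 2 entries each, and their positions, printed bases, identities and motifs come from the first entry only. The longest stretch shared by the 4 receptor genes among the 9 had 13 bases, in capitals, near the annotated start. It was picked for being shared, so its presence in all 4 is no finding. Searched on both strands in windows of 300 bases, it occurred in these 4 genes and no other of the 27025 genes in the table, or 0.0148%. How often any stretch of 13 bases is absent from the other genes was not tested, so this does not mark a family element. Counted from the annotated start, its first base lies at -76 in Klrb1b, -21 in Klrb1a, -86 in Klrb1f and 20 in Klrb1c.
Klrb1b (chr6:128826371-128826399, minus strand): tagctatgGAGAAACCCTCAGccaccagt
Klrb1a (chr6:128622935-128622963, minus strand): taaccatgGAGAAACCCTCAGagacagga
Klrb1c (chr6:128788602-128788630, minus strand): taaccatgGAGAAACCCTCAGagacagga
Klrb1f (chr6:129045807-129045835, plus strand): taactacaGAGAAACCCTCAGttgcaagt
The windows of Klrb1a and Klrb1c are the same over all 29 bases shown, and those of Klrb1b and Klrb1f differ from them on both sides of the capitals.

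The 250 bases before the annotated start of Klrb1b, the receptor gene that was high in tumors, are given with the same stretch in capitals.
Klrb1b (chr6:128826316-128826565, minus strand): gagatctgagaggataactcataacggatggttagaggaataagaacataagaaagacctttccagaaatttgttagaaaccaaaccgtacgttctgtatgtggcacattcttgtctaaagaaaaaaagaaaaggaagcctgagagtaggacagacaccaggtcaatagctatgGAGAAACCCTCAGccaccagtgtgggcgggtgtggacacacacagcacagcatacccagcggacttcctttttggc
Over 250 bases before the start, Klrb1a and Klrb1c were 64.8% identical in a global alignment, Klrb1b and Klrb1f 52.6%, and Klrb1b and Klrb1 55.8%. Klrb1b and Klrb1c were 42.0% identical, and Klrb1b and Klrb1a 40.1%, the lowest of all pairs compared. Pairs of a receptor gene and a Clec2 gene ran from 40.4% to 49.1%. Common promoter motifs were searched on both strands of these 250 bases. The TATA box, with the letters TATAAA, is held by 14.3% of all genes of the table. The letters CCAAT, which the factor NF-Y can bind, are held by 37.5%. The AP-1 site has TGA, any base, and then the reverse complement of TGA, and 7.82% hold it. The core of the antioxidant response element, TGACNNNGC, is held by 11.52%. Klrb1b held none of the 4 motifs, and neither did Klrb1c, Klrb1f or Klrb1, while Klrb1a held only the antioxidant response element core. Absence says only that these letters are not in the window searched.

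Among the Clec2 genes, Clec2d fell. Clec2d encodes the ligand of Klrb1b, and its level in adjacent liver was 9.54, 9.64, 9.52 and 10.25 for M24, M48, M50 and M60. In the tumors of these mice it was 8.77, 8.74, 8.24 and 8.88. The groups did not overlap, and tumor M50 was the lowest of all 8 samples. Clec2d was lower in 4 of 4 tumors, with differences of -0.77, -0.90, -1.28 and -1.37. Its mean difference was -1.08 (SE 0.12, 95% confidence interval -1.37 to -0.79, limma adjusted p = 0.00153), a 2.11-fold drop from 9.74 ± 0.35 (SD, n = 4) to 8.66 ± 0.29 (SD, n = 4). Leaving out 1 mouse at a time gave differences from -1.18 to -0.98, all past the threshold.

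The ligand gene thus remained well above the low-value filter in the tumors, by 4.06 on the mean, while it was lower than in the adjacent liver. The mice with the highest tumor levels of Klrb1b, M50 and M60, were also those with the largest drops of Clec2d. In M60, however, the Clec2d level was the highest of all tumors, at 8.88, and the drop started from the highest adjacent level, 10.25. With 4 mice no relation between these values was tested.

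The 250 bases before the start of Clec2d, the ligand gene that was expressed in both tissues, are given with the letters CCAAT in capitals.
Clec2d (chr6:129180365-129180614, plus strand): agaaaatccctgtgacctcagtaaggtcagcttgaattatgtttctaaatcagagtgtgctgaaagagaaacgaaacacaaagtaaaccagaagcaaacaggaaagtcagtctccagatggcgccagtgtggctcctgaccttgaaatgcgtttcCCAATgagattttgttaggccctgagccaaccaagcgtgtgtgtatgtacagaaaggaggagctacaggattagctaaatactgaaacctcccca
Clec2g and Clec2i also held the letters CCAAT, and the AP-1 letters were found in Clec2e, Clec2g and Clec2h. The windows of Clec2e and Clec2h were 81.8% identical, the closest pair among the start regions compared.

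Clec2h (Clr-f), a ligand of the receptor NKR-P1G known from intestinal epithelium, was low and went both ways. Its level in adjacent liver was 4.70, 4.29, 5.41 and 5.14 for M24, M48, M50 and M60. The tumors, in that order, read 4.24, 4.86, 4.76 and 4.48. It was lower in 3 of 4 tumors and higher in that of M48, and the groups overlapped. The mean difference of -0.30 (SE 0.21, 95% confidence interval -0.81 to 0.21) did not pass, with a limma adjusted p = 0.333. Without M48 it was -0.59 with an adjusted p = 0.0134, so the lack of a call rests on that mouse.

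Clec2i (Clr-g), a ligand of Klrb1f, ranged from 4.18 to 4.55 in adjacent liver and from 4.41 to 4.99 in tumors. Its values were higher in 3 of 4 tumors with a mean difference of 0.24, and the groups overlapped. It was below the filter, and its adjusted p in the limma fit without the filter was 0.161. Clec2e (Clr-a), known from gut epithelium, was lower in 4 of 4 tumors, by 0.11 to 0.90 in size, with a mean difference of -0.35 and an adjusted p = 0.118 in that fit. Its adjacent value was 3.65 in M60 and 2.81 to 3.21 in the other mice. Clec2g ranged from 3.46 to 3.97 in adjacent liver and from 3.34 to 3.64 in tumors, with a mean difference of -0.19 and an adjusted p = 0.205 without the filter. The group means of Clec2e and Clec2g lay within the range of the olfactory receptor genes, and those of Clec2h and Clec2i lay above its 95th percentile.

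Only 3 of the 9 genes, Klrb1b, Clec2d and Clec2h, passed the low-value filter. Of the 2 tested ones other than Klrb1b, 1 fell and 0 rose. Across all 11963 tested genes limma called 31.9%, of which 16.3% of tested genes rose and 15.7% fell, so a single call among so few genes is no result about the family.

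The genes that lie beside Klrb1b on chromosome 6 did not share its difference. Among the 26 other genes with a probe that lay within 10 such genes of Klrb1b or of Clec2d in the RefSeq gene order, differences ranged from -1.08 for Clec2d to 0.95 for Clec7a. Of these, 11 were tested, 2 rose and 2 fell, where 16.3% of all tested genes rose and 15.7% fell. The nearest genes on either side were Klrb1c, at 0.08, and Clec2i, at 0.24. Fkbp4, which encodes a cochaperone of steroid receptors, fell by 0.52 (adjusted p = 0.0144). Clec7a, which encodes the beta-glucan receptor dectin-1 of myeloid cells, rose by 0.95 (adjusted p = 0.0164), and Clec1a, a lectin-like gene known from endothelium, rose by 0.46 (adjusted p = 0.0212). Clec12a, an inhibitory receptor of myeloid cells, stood at 0.55 (adjusted p = 0.167), with values of 1.36 in M50 and 1.04 in M60 and -0.14 and -0.05 in M24 and M48. Cd69, an early activation marker of lymphocytes that lies next to Clec2d, went from 3.43 to 3.61 and was below the filter. The calls of Clec1a and Clec7a were lost without M60 (adjusted p = 0.0759 and 0.0533), and that of Clec1a also without M24 (0.0599) or M50 (0.0685) and that of Clec7a with no replicate block (0.0817).

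**Figure D2:**
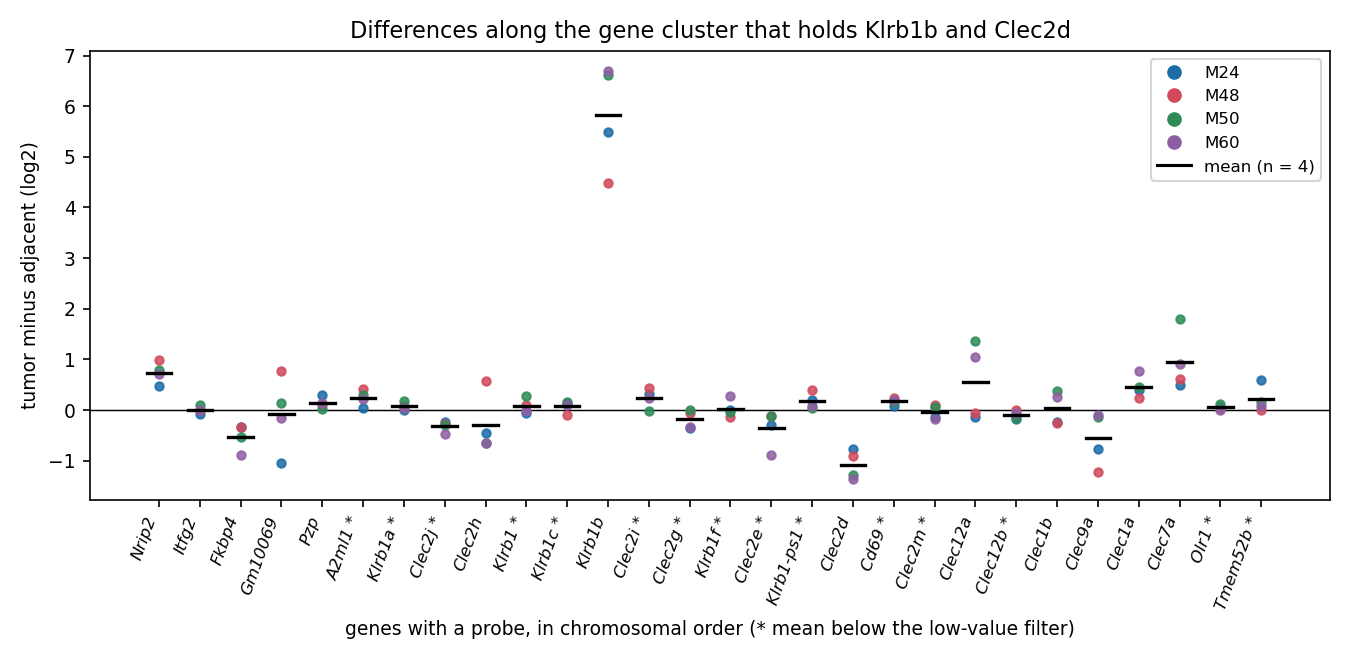
Tumor minus adjacent difference (log2, vertical axis) of genes with a probe in their chromosomal order along the cluster, with a point per mouse and a bar at the mean of 4 mice. Asterisks mark genes below the low-value filter. Klrb1b stands at 4.48 to 6.69 while the means of the other genes lie between -1.08 (Clec2d) and 0.95 (Clec7a).

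Other lectin-like receptors of the NK complex were mostly at background. Of 29 with a probe, 24 were below the filter, among them Klrk1 (NKG2D, an activating receptor; 3.43 in adjacent liver and 3.60 in tumors), Klrd1 (CD94, the partner of the NKG2 chains; 3.11 and 3.49) and Klrc1 (NKG2A, an inhibitory chain; 3.25 and 3.33). Among the 5 tested, Clec7a and Clec1a rose and 0 fell, or 1 (Clec9a) with median centring or renewed quantile normalization. The median difference was 0.46 over the 5 tested, 0.05 over all 29 with a probe and 8e-04 over all tested genes. Of all tested genes 16.3% rose and 15.7% fell. The count of rises was 0 without M60 and 1 without M24, without M50 or with no replicate block.

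Most NK cell markers, 18 of 25 with a probe, were below the filter, and of the 7 tested, 2 rose and 1 fell. The shares over all tested genes were 16.3% and 15.7%, so so few calls are no result about the list. Among the defining markers, Ncr1 (NKp46) stood at 3.24 in adjacent liver and 3.20 in tumors, Eomes, a transcription factor of NK cells, at 3.18 and 3.31, and Klrd1 at 3.11 and 3.49, all within the range of the olfactory receptor genes. Prf1, the pore-forming protein of cytotoxic granules, went from 4.89 to 5.33 (difference 0.45, limma adjusted p = 0.0858). Itga2, an integrin that NK cells share with platelets and epithelia, rose by 2.60 (adjusted p = 0.000271), and Ccl5, a chemokine of cytotoxic lymphocytes and other cells, rose by 1.25 (adjusted p = 0.0287). Itga2 passed the filter through its tumor values, with means of 4.31 in adjacent liver and 6.91 in tumors. In the limma fit without the filter its adjusted p was 0.000215. S1pr5, a receptor for sphingosine 1-phosphate that NK cells use to leave tissues, fell by 0.92 (adjusted p = 0.0064). Nkg7, a granule protein, stood at 1.24 (adjusted p = 0.0626).

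The NK list varied between mice. Its summed level on the linear scale, taken to log2, ranged from 8.81 to 9.11 in adjacent liver and from 9.37 to 10.33 in tumors. Among tumors it was highest in M60 and lowest in M48, as was Klrb1b, but it was higher in M24 (9.54) than in M50 (9.50), unlike Klrb1b. The summed levels of the T cell list and of the B and plasma cell list were also highest in tumor M60 and lowest in tumor M48. The part of the NK list in the Klrb1b values was not tested. In M48, where Klrb1b differed by 4.48, the summed level went from 9.11 to 9.37, Itga2 differed by 2.78, Ccl5 by 0.19, Prf1 by 0.12, Nkg7 by -0.14 and S1pr5 by -0.54. Without M48, 4 of the 7 rose. Without M24 or M50, 1 did, since the Ccl5 call was lost (adjusted p = 0.0905 and 0.0815). It was also lost with no replicate block (0.0539).

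T cell markers showed no call in the limma fit. Of 16 with a probe 7 were tested, and 0 rose and 0 fell, where 16.3% of all tested genes rose and 15.7% fell. The T cell receptor chain Cd3e went from 5.33 to 5.69 (difference 0.36, adjusted p = 0.158) and Cd3g from 4.56 to 5.76 (difference 1.19, adjusted p = 0.0725). Cd3d, below the filter, went from 3.70 to 4.13, with an adjusted p = 0.044 in the limma fit without the filter. The cytotoxic T cell marker Cd8a stood at 0.81 (adjusted p = 0.0907) and ranged from 0.14 in M48 to 2.11 in M60. Without M48, 1 of the 7 rose. The list's summed level on the log2 scale was 8.15 to 8.46 in adjacent liver and 8.38 to 9.69 in tumors, with M60 the highest. Among 5 tested B and plasma cell genes 0 rose and 0 fell. The antibody-joining chain Jchain passed without M48 (adjusted p = 0.0474) or without M60 (0.0229), and stood at 5.03 in M60 and at 0.55 to 1.67 in the other mice.

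Myeloid and other cell types moved in part. Of 18 macrophage and Kupffer cell markers 4 rose and 4 fell. Beside this and the counts below, 16.3% of all tested genes rose and 15.7% fell. The monocyte receptor Ccr2 rose by 0.99 (adjusted p = 0.00615), and the resident Kupffer cell marker Timd4 fell by 0.94 (adjusted p = 0.00644). With no replicate block both calls were lost (adjusted p = 0.144 for Ccr2 and 0.262 for Timd4), and 1 gene of the list rose and 1 fell. The count of rises was 2 without M48, without M50 or without the filter, and 1 without M60. The scavenger receptor Cd163 fell by 1.56 (adjusted p = 0.00613). Among dendritic cell markers 1 of 7 tested genes rose, Itgax (CD11c), by 1.21 (adjusted p = 0.00226), and 0 fell, or 1 (Clec9a) with median centring or renewed quantile normalization. The 1 of 3 tested neutrophil markers that rose was Lcn2, a secreted protein that hepatocytes also make, at 2.58 (adjusted p = 0.0125), while S100a8 stood at -0.39. Endothelial genes rose in 7 of 12 cases and stellate cell and fibroblast genes in 4 of 12, with 0 lower in either list, among them the endothelial sialomucin Emcn at 1.46 (adjusted p = 0.00146) and the collagen Col3a1 at 1.94 (adjusted p = 0.000512). The endothelial rises numbered 4 without M50 or without M60. Bile duct genes rose in 7 of 9 tested cases and gut epithelial genes in 4 of 7, again with 0 lower, and the gut rises numbered 2 without M24. Of 15 gut genes with a probe 8 were below the filter, and the median difference over all 15 was 0.12. These lists were chosen with earlier results of these data known. They hold Tspan8 (bile duct) and Tff3 (gut), whose tumor excess was as large as that of Klrb1b, so these counts are no independent result. Of 9 hepatocyte genes 1 rose and 3 fell. The rise, of Apoa1 (adjusted p = 0.0387), was lost without M24, M48 or M60 and with median centring, and the fall of Hnf4a (adjusted p = 0.0253) was lost without any single mouse. Albumin (Alb) stood at 13.80 in adjacent liver and 13.91 in tumors. The part of these cell types in the Klrb1b and Clec2d values was not tested.

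**Figure D3:**
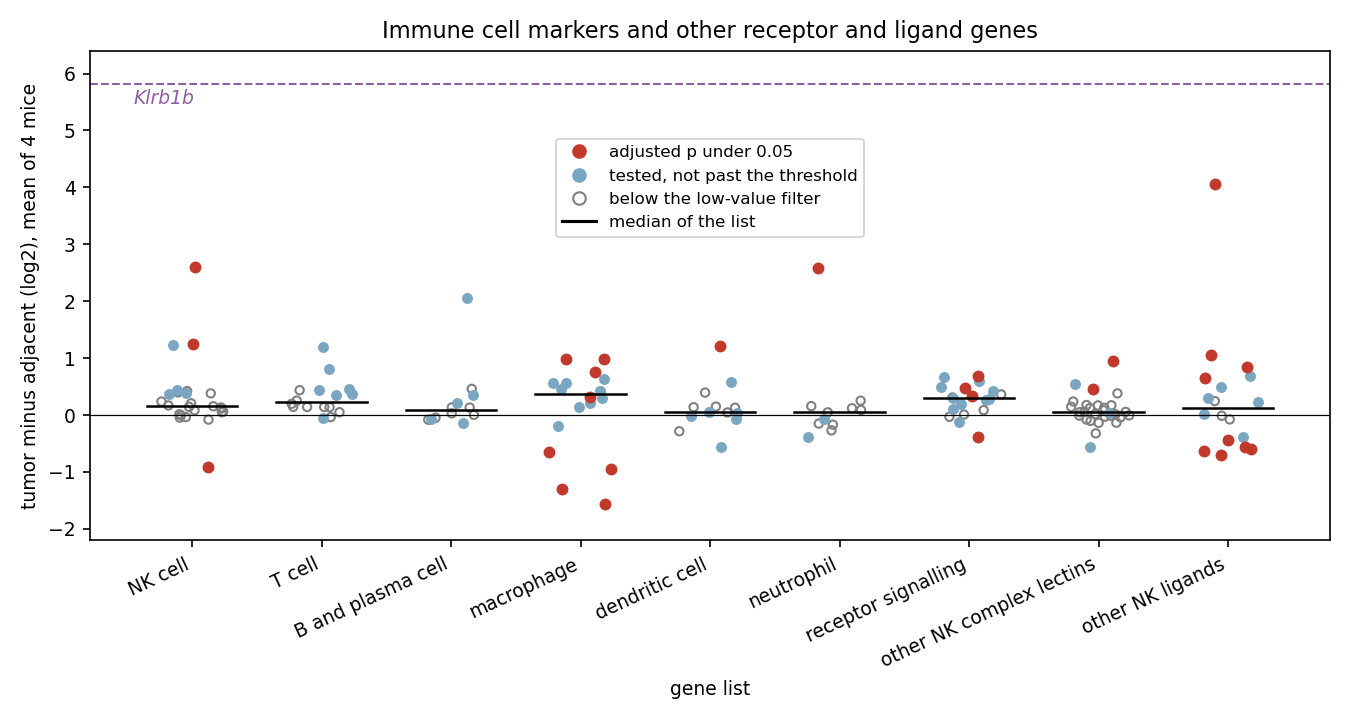
Tumor minus adjacent difference (log2, mean of 4 mice, vertical axis) of each gene with a probe in 9 lists (horizontal axis). Filled red points passed an adjusted p of 0.05, blue points did not, open points lay below the low-value filter, and bars mark list medians. The highest NK cell marker is Itga2 at 2.60, and the dashed line marks Klrb1b at 5.82.

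Genes that relay signals from these receptors were mostly above the filter, with 14 of 19 tested. Klrb1b recruits the phosphatase SHP-1 (Ptpn6), while Klrb1c acts through the adaptor Fcer1g. Of 14 tested signalling genes 3 rose and 1 fell, with a median of 0.32. That is near the shares over all tested genes, 16.3% and 15.7%, and is no result about the list. Ptpn6 rose by 0.33 (adjusted p = 0.0368), the kinase Fyn by 0.69 (adjusted p = 0.028) and the adaptor Lat2 by 0.47 (adjusted p = 0.045), and the phospholipase Plcg1 fell by 0.39 (adjusted p = 0.0133). Fcer1g stood at 0.67 (adjusted p = 0.0833), with 1.47 in M50, 1.03 in M60 and 0.06 to 0.11 in the other mice. These genes are used by many blood cells. The calls were unsteady: the count of rises was 0 without M50 or M60, 1 without M24, with median centring or without the filter, and 2 with no replicate block, and the count of falls was 0 without M60. The call of Ptpn6 was lost under each of these settings, and also without M48 (adjusted p = 0.056). That of Lat2 was also lost with median centring (0.0525) or renewed quantile normalization (0.0542).

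Ligands of other NK receptors went both ways. Of 15 tested genes 4 rose and 5 fell, with a median of 0.22, where 16.3% of all tested genes rose and 15.7% fell. E-cadherin (Cdh1), which the inhibitory receptor KLRG1 binds, rose by 4.06 (adjusted p = 0.000111), and the poliovirus receptor Pvr, a ligand of CD226 and TIGIT, rose by 1.05 (adjusted p = 0.00183). N-cadherin (Cdh2) fell by 0.56 (adjusted p = 0.00359) and the adhesion protein Nectin3 by 0.71 (adjusted p = 0.00764). The 4 rises became 2 when M50 or M60 was left out or the block dropped. The calls of Cdh1, Pvr, Cdh2 and Nectin3 held in each of these settings and without M24 or M48.

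The genes whose 4 differences lay closest to those of Klrb1b all had large tumor excesses. Closeness was the root mean square gap over the 4 mice between the differences of a gene and those of Klrb1b. It was smallest for the trefoil factor Tff3, at 0.87, followed by the prohormone-processing enzyme Cpe at 0.90, the surface protein Ly6d at 0.90 and the desaturase Scd2 at 1.09. The tetraspanin Tspan8 (1.35), Tmem54 (1.46), Gldn (1.605) and the cystine transporter Slc7a11 (1.75) came next. Tff3 and Scd2 had their lowest difference in M48, at 4.61 and 4.11, as Klrb1b did, while Slc7a11 had its highest there, at 6.16. Klrb1b was chosen for a large difference, so this ranking describes the tumors and says nothing of shared function or control.

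**Figure D4:**
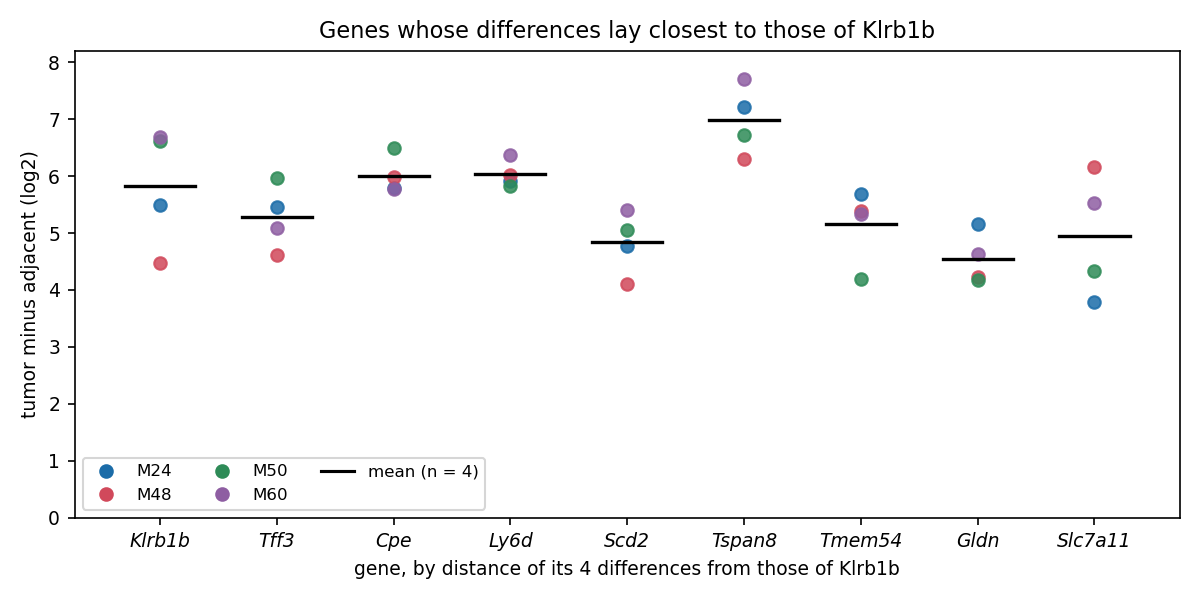
Tumor minus adjacent difference (log2, vertical axis, from 0) in each of the 4 mice for Klrb1b and the 8 genes whose differences lay closest to it, with bars at the means. The values of Klrb1b run from 4.48 in M48 to 6.69 in M60, a wider spread than those of Cpe or Ly6d.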

How the data were processed

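The authors deposited a table of log2 expression values for 28874 probes in 8 samples, with 0 missing values and array medians from 4.888 to 5.006, so it was taken as normalized between arrays. The log base was inferred from the range, 1.918 to 14.49. MAS5 appears among the tools in the submitters' processing notes, without its role, and the sources used here give no detection calls or batches. Probe names came from the array's annotation table, in which 21789 probes had 1 symbol, 1621 had several and 5464 had no entry. RefSeq's GRCm38.p6 table held the gene identifier of 21698 of the first kind. The probe with the highest mean represented each gene, the 40% of genes with the lowest mean (below 4.597) were left out, and 11963 were tested.

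Differences were fitted with limma 3.58.1 (lmFit, eBayes with trend) in R 4.3.3, two-sided, with Benjamini-Hochberg adjustment over all tested genes. The mouse was a block because both tissues came from the same animals. Deviations from group means correlated at 0.0986 to 0.421 within mice and at -0.378 to 0.189 between mice. Adjacent M50 and M60 correlated more with tumor M24 (0.129 and 0.189) than with their own tumors (0.0986 and 0.111). The fit was also run on simulated data, in which far fewer genes were changed than were called here. That run therefore does not show how the fit performs on these data. Members and lists were chosen with earlier results of these data known. Genes named are the 9 members, their chromosomal neighbours, the 8 closest profiles, defining NK and T cell markers, and up to 4 members of each list with the smallest p. Klrk1, Klrc1, Fcer1g and Alb were chosen after their values were seen. The number of arrays limits the precision.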

Additional observations from a re-analysis of the deposited data

Results flagged for a closer look

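In 106 groups of 4 values, the highest or lowest was checked for a gap to its nearest neighbour beyond Dixon's critical share of the group's range, and 7 groups had such a value, where chance gives about 1 in 20. Clec2d had an adjacent level of 10.25 in M60, above the 9.52 to 9.64 of the other mice. Clec2h differed by 0.57 in M48, against negative values in the other mice. Klrb1f had a tumor level of 3.59 in M60, at background. Among other named genes, 1 mouse stood apart in the difference of Cps1 (-1.31 in M50), Timd4 (-0.33 in M60), Bst2 (-0.30 in M60) and Lat2 (-0.0368 in M48).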

How the results depend on the processing

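Of 90 values of the 9 genes under alternatives (no replicate block, no low-value filter, the mean of all probes, renewed quantile normalization, median centring, no variance trend, and leaving out each mouse), 89 stayed within 1 SD or kept their direction and side of the threshold. The exception was Clec2h without M48, at -0.59, where leaving out each mouse gave -0.59 to -0.18. For Klrb1b and the genes below the filter, only movement of the difference was judged. Dropping the block, the filter or the trend, or averaging probes, could not change that difference. Leaving out a mouse could not move it by 1 SD. For these genes such settings were therefore no test, and only the renewed normalization and the centring could have differed. Klrb1b ranged from 5.53 to 6.26 and was 5.76 with median centring, which shifted the median of all tested genes to -0.06. Klrb1f, near 0 at 0.02, was -0.03 under that centring and -0.06 without M60, both within its spread. With no replicate block Clec2d had a limma adjusted p = 0.00376 and Clec2h 0.386, so the pairing changed no call of the members. Leaving out a mouse gave 1238 to 1759 genes higher and 1071 to 1720 lower over all tested genes, the counts without M60 and without M50 being lowest. The alternatives for list counts were added after the data were seen. Probes near background limit what can be said of Klrb1a, Klrb1c, Klrb1f, Clec2e and Clec2g, whose small or absent signal does not show that they are not expressed.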
